A study of Mus musculus with 68 samples.

Results

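The POU3 transcription factors Pou3f1, Pou3f2, Pou3f3 and Pou3f4 were followed through a screen in which single factors, or pairs of factors, were induced in mouse motor neurons. A gene was taken where a transcript cluster, the probe set that stands for a transcript on the array, was annotated to 1 of the 4 symbols. This gave 5 clusters and 4 genes of the 19938 genes measured. Pou3f1 was read by cluster 10507905, Pou3f3 by 10345879 and Pou3f4 by 10601459. Pou3f2 had 2 clusters, of which 10511812 had the higher mean over all arrays and was kept. The values of the other, 10511810, are given beside it as the other Pou3f2 cluster.

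Mouse embryonic stem cells, labelled C57/BL6, were turned into motor neurons in embryoid bodies, with retinoic acid and with an agonist of Smoothened from day 2. On day 5 they were sorted magnetically for a motor neuron reporter, CD2 or CD14. By the protocol they were induced with doxycycline and kept for 30 h on matrigel. Their RNA was hybridised to 68 arrays in batches numbered 0 to 7. The labels gave 31 groups, 45 arrays of CD2 cells and 23 of CD14 cells, and the series names YFP lines as the control. The screen looked for determinants of phrenic motor neurons, which lie in the cervical spinal cord and innervate the diaphragm.

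In CD2 cells, YFP and Pou3f1 had 4 arrays each, the parental line H4 had 3, and 17 further lines had 2 each. These were Klf5, Klf6, Sfmbt2, Zbtb7c, Hey1, Chd5, Btbd3, Vwc2, Arid5b, Tox, Hoxa5, Hoxc6, Zic1, Lhx3, DNLhx3 (a dominant-negative Lhx3) and the Notch1 intracellular domain, labelled Notch1 ICD (30) or Notch1 ICD (10). In CD14 cells, YFP had 4 arrays, and Pou3f1, FLAG-tagged Pou3f1, Pou3f1 with Hoxa5, Pou3f1 with Hoxc6, Pou3f1 with Lhx3, Pou3f1 with DNLhx3, NERT (30) and NERT (10) had 2 each. The parental line E3 had 1 array in batch 6, and 2 further E3 arrays, labelled as induced, made up batch 0 and entered no comparison. The batch 6 E3 array and the H4 arrays are labelled only as parental. Whether they received doxycycline is not clear from the labels. The protocol states that the transgene ran for only the last 10 h in some experiments with Notch domains. NERT is used as the labels give it. The sources used here do not say whether a line was 1 clone or what drove the reporter or the transgene.

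POU3 proteins bind DNA through a POU-specific domain and a POU homeodomain, and they regulate neural progenitors, neuronal differentiation and glia. Pou3f1, also called Oct6 or SCIP, marks phrenic and some other motor neurons and acts in Schwann cells. Pou3f2 (Brn2) and Pou3f3 (Brn1) act together in the developing cortex, and Pou3f4 (Brn4), an X-linked gene, acts in the inner ear and neural tube.

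The promoters of the 3 members whose response to induced Pou3f1 is compared are shown first, as the 250 bases before each gene's RefSeq start (RefSeq, build GRCm38.p6), 5′ to 3′ on the gene's own strand. The promoter table held 3 of the 4 members. The windows are chr4:22488367-22488616 on the minus strand for Pou3f2, chr1:42695518-42695767 on the plus strand for Pou3f3 and chrX:110814129-110814378 on the plus strand for Pou3f4. Capitals mark every CCAAT box, searched as CCAAT and, for the opposite strand, ATTGG.

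Pou3f2: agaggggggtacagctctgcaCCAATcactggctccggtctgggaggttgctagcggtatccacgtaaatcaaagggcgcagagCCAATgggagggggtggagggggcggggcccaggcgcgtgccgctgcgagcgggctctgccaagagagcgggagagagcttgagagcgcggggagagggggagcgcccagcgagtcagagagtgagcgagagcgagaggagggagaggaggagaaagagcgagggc

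Pou3f3: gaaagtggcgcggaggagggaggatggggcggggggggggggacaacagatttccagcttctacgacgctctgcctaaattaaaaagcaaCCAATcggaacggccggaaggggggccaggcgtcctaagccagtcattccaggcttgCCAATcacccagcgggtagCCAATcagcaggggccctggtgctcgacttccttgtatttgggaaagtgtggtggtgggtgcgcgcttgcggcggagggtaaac

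Pou3f4: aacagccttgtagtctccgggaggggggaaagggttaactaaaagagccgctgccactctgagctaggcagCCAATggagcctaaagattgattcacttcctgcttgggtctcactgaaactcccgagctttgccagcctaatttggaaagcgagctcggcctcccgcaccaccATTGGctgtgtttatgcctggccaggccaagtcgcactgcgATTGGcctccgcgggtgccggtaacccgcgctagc

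A CCAAT box is a common promoter element bound by the factor NF-Y. The box was found 2 times in the Pou3f2 window and 3 times in each of the Pou3f3 and Pou3f4 windows. All matches of Pou3f2 and Pou3f3 lay on the gene's strand, whereas Pou3f4 had 1 on its own strand and 2 on the opposite one. Of 32851 promoter windows of the same length, 33.8% held at least 1 CCAAT and 10.1% held 2 or more. It was searched because it was seen in these windows. The octamer ATGCAAAT, the element for which POU factors are known, with its other strand ATTTGCAT, was in none of the 3 windows and in 1.6% of all. That says only that these letters are not within these windows. The windows had 66.8%, 60.8% and 58% G and C in that order.

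The labelled cell type was checked against its markers. Of 8 motor neuron markers in YFP arrays, the vesicular acetylcholine transporter Slc18a3 and the factor Isl1 lay at the 99.3 and 98.9 percentiles of all gene means. The lowest were Lhx3 at 43.4, Mnx1 at 61.7 and Chat at 77.8. The 4 pluripotency genes lay between 15 (Pou5f1) and 24.7 (Dppa5a). Progenitor genes were present too. Their 10 markers ran from 38.4 (Pax6) to 100 (Fabp7 and Vim), with Olig2 at 59.4, Hes5 at 61.7 and Sox2 at 81.2. In 6 of the 9 arrays of batch 4 the positional gene Hoxa5 read 12.14 to 12.75, against 9.62 to 9.90 in the other 3. These 6 include 2 of the 4 Pou3f1 arrays in CD2 cells, so results for these arrays are also given without all 6. In bulk samples, fewer cells of a type and less RNA per cell cannot be told apart.

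Over all 68 arrays the log2 value of Pou3f1 ranged from 7.72 to 10.70 with a median of 8.50. Its lowest readings, 7.72 and 7.75, were those of batch 0, whose array medians of 7.08 to 7.09 lay below the 7.57 to 7.84 of batches 1 to 7, and outside batch 0 the lowest was 8.10. Its SD of 0.603 lay at the 96.7 percentile of all genes. Pou3f4 ranged from 10.45 to 12.35 (SD 0.37, percentile 87.4). The kept Pou3f2 cluster ranged from 9.08 to 10.30 (SD 0.233, percentile 44.8), and Pou3f3 from 9.36 to 10.49 (SD 0.255, percentile 58.3). Pou3f1 and Pou3f4 were thus the members with the highest SD percentiles among the kept clusters. For Pou3f1 the 68 arrays include 16 of lines that carry it as transgene, and its highest readings were in those lines. Its SD is therefore in part set by the design. The other Pou3f2 cluster ranged from 7.41 to 9.97 with an SD of 0.482. Levels of different genes come from different probes, so the members' levels were not compared with each other. The marker percentiles above rank different genes and share this limit.

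**Figure D1:**
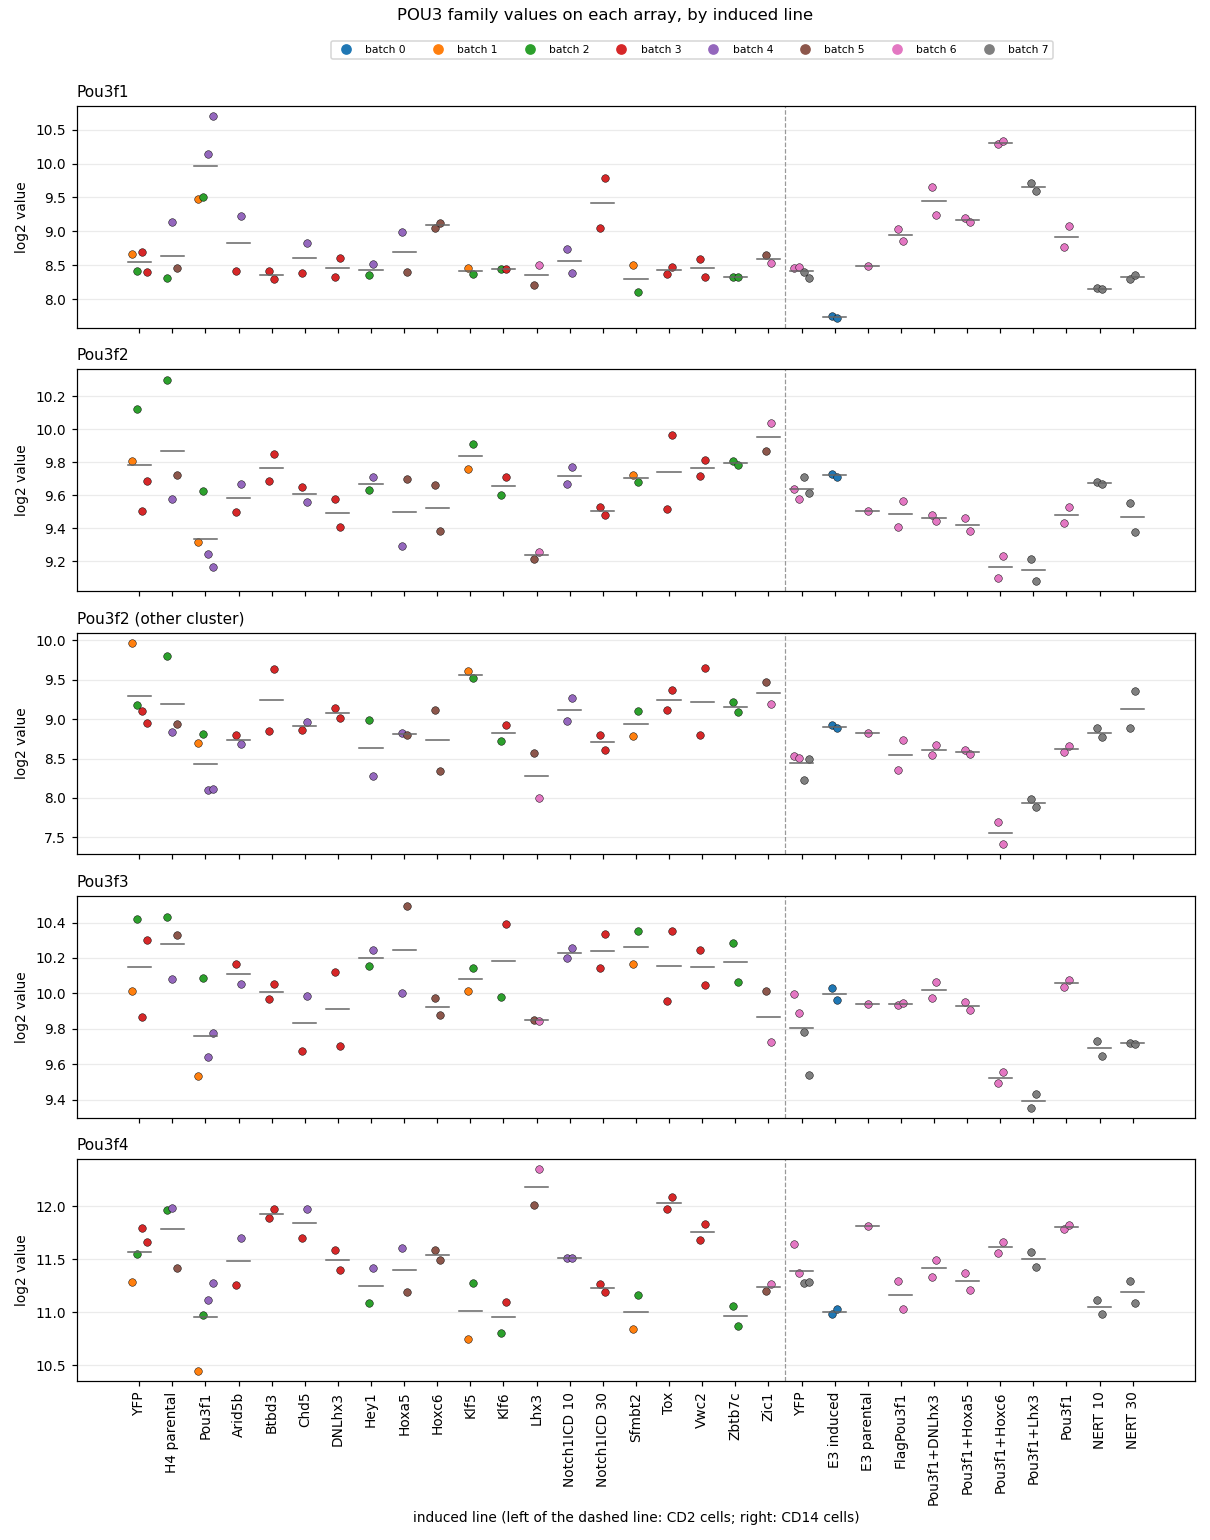
Log2 value (y axes) of each member, and of the other Pou3f2 cluster, on each of 68 arrays. Lines are on the x axis, CD2 cells left and CD14 cells right of the dashed line, points are single arrays coloured by batch, and grey bars are group means. Pou3f1 stands high in the Pou3f1 lines, in Notch1 ICD (30) and in some batch 4 arrays, and Pou3f4 reaches 12.35 in the Lhx3 line of CD2 cells.

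The induced factor itself was examined first. In CD2 cells, Pou3f1 read 9.48 (batch 1), 9.51 (batch 2), 10.14 and 10.70 (both batch 4) in the 4 arrays of the Pou3f1 line, and 8.67, 8.41, 8.69 and 8.39 in the 4 YFP arrays. Every Pou3f1 array lay above every YFP array. The fit, which has a term for each line and batch, gave a rise of 1.09 ± 0.15 (fitted log2 difference ± SE, n = 4 and 4, limma adjusted p = 9.84e-06), a fold of 2.13. Without the 6 batch 4 arrays the rise was 0.943 (adjusted p = 0.000288). Nothing in the labels ties replicates to separate cultures, so all p-values here measure the spread between samples, which may be technical. The sources used here do not say whether the cluster reads the transgene as well as the endogenous gene.

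In CD14 cells, Pou3f1 read 8.76 and 9.07 in the Pou3f1 line, against 8.45 and 8.48 in YFP arrays of batch 6, which they share, 8.40 and 8.31 in YFP arrays of batch 7, and 8.49 in the E3 array. The Pou3f1 arrays were the highest of these 7, but the difference of 0.45 ± 0.19 (n = 2 and 4) had a limma adjusted p of 0.583, and its 95% interval ran from 0.07 to 0.83. The effect in CD14 minus that in CD2 was -0.64 (adjusted p = 0.817).

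Of the kept clusters of the other members, Pou3f4 had the largest difference in CD2 cells. It read 10.45, 10.97, 11.12 and 11.28 in the Pou3f1 line (batches 1, 2, 4 and 4) and 11.29, 11.55, 11.79 and 11.66 in YFP cells (batches 1, 2, 3 and 3). The groups did not overlap, although the highest Pou3f1 array and the lowest YFP array differed by little. Pou3f4 fell by 0.73 ± 0.09 on the log2 scale (n = 4 and 4, limma adjusted p = 3.93e-06), a fold of 1.65. Within batch 1 the difference was -0.84 and within batch 2 it was -0.58, from 1 array on each side. Against H4 arrays of the same batch it was -0.996 in batch 2 and -0.79 in batch 4. The fall was 0.68 without the 6 batch 4 arrays (adjusted p = 0.000126), and it passed the threshold under each of the 20 alternatives run.

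Pou3f2 was lower in the same CD2 arrays. The kept cluster read 9.32, 9.63, 9.24 and 9.17 in the Pou3f1 line and 9.81, 10.12, 9.50 and 9.69 in YFP cells, in the same batch order. One Pou3f1 array, that of batch 2, lay above the lowest YFP array, so the groups overlapped. Pou3f2 fell by 0.43 ± 0.12 (limma adjusted p = 0.0378). The other cluster read 8.69, 8.81, 8.10 and 8.11 against 9.97, 9.18, 9.10 and 8.95, with no overlap, and fell by 0.76 ± 0.19 (adjusted p = 0.0237).

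The call for the kept Pou3f2 cluster was close to the threshold. It was lost when any 1 of 7 of the 8 arrays was left out, all except replicate 1 of YFP in batch 3, with adjusted p from 0.05 to 0.248. The lost calls gave -0.44 and -0.38 without the YFP and Pou3f1 arrays of batch 1, -0.34 and -0.47 without those of batch 2, and -0.42 without replicate 2 of YFP in batch 3. They gave -0.44 and -0.42 without replicates 1 and 2 of Pou3f1 in batch 4. The direction was the same within each batch, at -0.49 in batch 1 and -0.49 in batch 2. Against H4 arrays it was -0.67 in batch 2 and -0.37 in batch 4.

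Pou3f3 read 9.54, 10.09, 9.64 and 9.78 in the Pou3f1 line and 10.02, 10.42, 9.87 and 10.30 in YFP cells. The groups overlapped. The difference of -0.38 ± 0.12 did not pass (limma adjusted p = 0.117, 95% interval -0.63 to -0.13). It passed in 1 of 20 alternatives, at -0.46 (adjusted p = 0.0259) without replicate 1 of YFP in batch 3. Without the 6 batch 4 arrays it was -0.293 (adjusted p = 0.417). Within batches 1 and 2 it was -0.48 and -0.33.

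Thus 2 of the 3 other members passed the test in CD2 cells, both lower, and none was higher. Over all genes, 2.09% passed in this comparison, 1.3% higher and 0.787% lower. Of 10 progenitor markers, 0 passed by limma, and their median difference was -0.53. Their mean log2 value was 10.16 to 10.68 in the Pou3f1 arrays and 10.37 to 10.96 in YFP arrays, which overlapped. Single markers ran from -0.95 (Ccnd1) to 0.25 (Pax6), with Nes at -0.62, Hes5 at -0.02 and Vim at 0.04. The mean over 8 motor neuron markers was 10.78 to 11.31 against 10.84 to 11.14. The part of these markers in the result was not tested.

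In CD14 cells the other members did not pass the test. Pou3f4 read 11.79 and 11.82 in the Pou3f1 line, 11.64 and 11.37 in YFP arrays of batch 6, 11.27 and 11.29 in those of batch 7, and 11.81 in the E3 array. Both Pou3f1 arrays lay above all YFP arrays, but the E3 array, which carries no induced factor by its label, lay at their level. The difference from YFP was 0.30 ± 0.12 (limma adjusted p = 0.544), and from E3 it was -0.0041. Pou3f2 differed from YFP by -0.13 (adjusted p = 0.914, interval -0.42 to 0.17) and Pou3f3 by 0.11 (adjusted p = 0.937, interval -0.20 to 0.43). The other Pou3f2 cluster differed by 0.10 (interval -0.39 to 0.59), opposite in sign to the kept cluster. The mean of the progenitor markers was 10.24 to 10.32 in the Pou3f1 arrays, 10.20 to 10.85 in YFP and 10.04 in E3, and their median difference was 0.06. None of the 4 members passed here, beside 0.306% of all genes, 0.246% higher and 0.0602% lower.

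**Figure D2:**
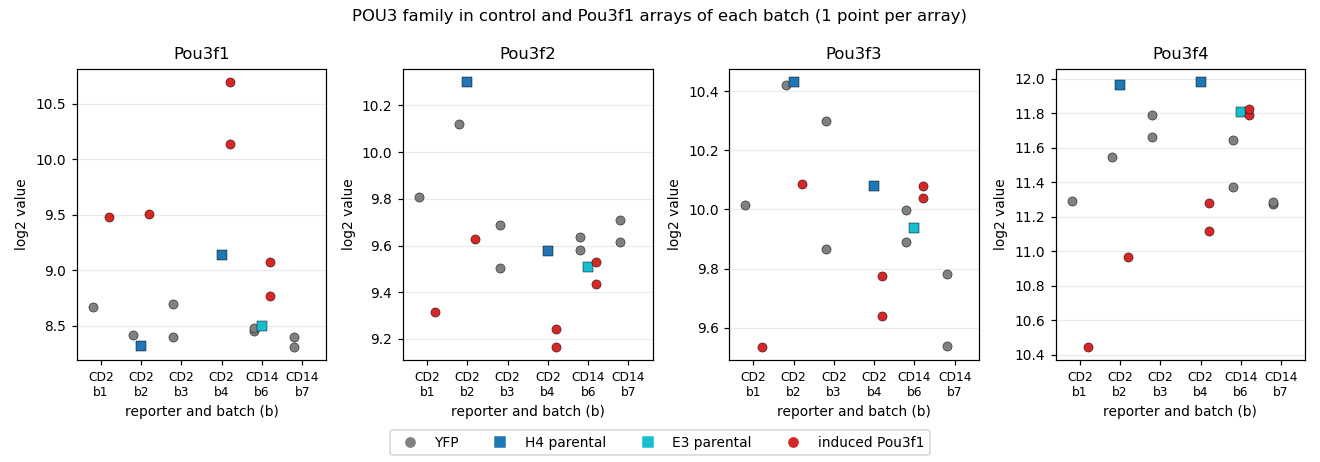
Log2 value (y axes) of the 4 members in YFP (grey), parental (squares) and Pou3f1 arrays (red), 1 point per array, by reporter and batch (x axes). In CD2 cells the Pou3f1 arrays lie below the controls of the same batch for Pou3f2, Pou3f3 and Pou3f4, and in CD14 batch 6 they lie above YFP for Pou3f4, at the level of the E3 array (11.81).

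The effects of induced Pou3f1 in both kinds of cell were then compared within the model. The Pou3f1 arrays of CD14 and CD2 cells come from different lines and different batches. The reporter, the line and the batch therefore cannot be told apart in this comparison. For Pou3f4 the effect in CD14 cells was higher than that in CD2 cells by 1.02 ± 0.15 (95% interval 0.72 to 1.33, limma adjusted p = 0.00114). Pou3f4 was 1 of only 2 genes, 0.01% of those tested, that passed. The other was Nr0b1, an orphan nuclear receptor, which is named because earlier results of these data singled out both genes. Nr0b1 rose by 2.14 ± 0.27 in CD14 cells (adjusted p = 7.79e-06) and differed by 0.22 in CD2 cells (adjusted p = 0.762).

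The Pou3f4 call between reporters changed with the controls. It was lost without replicate 2 of YFP in batch 6 (0.888, adjusted p = 0.14) and without batch terms (1.03, adjusted p = 0.216). With E3 as the CD14 control, an alternative chosen after seeing the data, it was 0.721 (adjusted p = 0.62), and with both parental lines as controls it was 0.874 (adjusted p = 0.051). Without the 6 batch 4 arrays it was 0.979 (adjusted p = 0.0107). For Pou3f2 the effects differed by 0.30 (interval -0.07 to 0.68, adjusted p = 0.82) and for Pou3f3 by 0.49 (interval 0.09 to 0.90, adjusted p = 0.817). For the other Pou3f2 cluster they differed by 0.86 (interval 0.23 to 1.49, limma adjusted p = 0.817), more than for the kept cluster. The induced Pou3f1 itself read lower in CD14 cells, as given above, and a role of its level in the difference was not tested.

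Other CD14 lines carried Pou3f1 at higher readings, and they were compared with the same YFP arrays. With Hoxc6, a brachial Hox factor, Pou3f1 read 10.29 and 10.33. With Lhx3, a homeodomain factor of the LIM class in newborn motor neurons, it read 9.72 and 9.59. These 4 arrays lay above all CD14 controls by more than the spread among them, and the fitted rises were 1.84 ± 0.19 and 1.30 ± 0.19 (n = 2 each, limma adjusted p = 4.51e-09 and 7.67e-06). With DNLhx3, Pou3f1 read 9.66 and 9.24 and rose by 0.98 (adjusted p = 0.000448), and without replicate 1 by 0.773 (adjusted p = 0.0594). With Hoxa5 it read 9.19 and 9.14 and rose by 0.70 (adjusted p = 0.0183). That call was lost without any 1 of the 4 batch 6 arrays: 0.687 and 0.713 without replicates 1 and 2 of YFP, and 0.676 and 0.725 without replicates 2 and 3 of the line. The FLAG-tagged line read 9.03 and 8.86 and did not pass (0.48, adjusted p = 0.182).

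Pou3f2 fell in the 2 CD14 lines with the highest Pou3f1 readings. With Hoxc6 the kept cluster read 9.10 and 9.23 against 9.64 and 9.58 in batch 6 YFP arrays, and fell by 0.45 (limma adjusted p = 0.0468, beside 8.98% of all genes in this comparison). The other cluster read 7.69 and 7.41 against 8.53 and 8.50 and fell by 0.97 (adjusted p = 0.00762). With Lhx3 the kept cluster read 9.22 and 9.08 against 9.71 and 9.62 in batch 7 YFP arrays, and fell by 0.51 (adjusted p = 0.033, beside 3.94% of all genes). The other cluster read 7.98 and 7.88 against 8.23 and 8.49, and its difference of -0.43 did not pass (adjusted p = 0.523).

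In both lines all line arrays lay below all YFP arrays of their batch for both clusters. With 2 arrays on each side such a separation says little. In the CD14 line with Pou3f1 alone, no member overlapped with YFP of batch 6, even at 0.11 for Pou3f3 and -0.13 for Pou3f2. The share of all genes that separate in this way was not counted. The kept cluster's call was also lost when 1 array was left out. With Hoxc6 it became -0.42 and -0.47 without replicates 1 and 2 of YFP in batch 6, -0.38 and -0.51 without replicates 1 and 2 of the line, and -0.45 without replicate 1 or 2 of YFP in batch 7 (adjusted p from 0.0521 to 0.296). With Lhx3 it became -0.47 and -0.56 without replicates 1 and 2 of YFP in batch 7, and -0.58 and -0.45 without replicates 3 and 4 of the line (adjusted p from 0.0881 to 0.285). With E3 in place of YFP the differences were -0.343 (adjusted p = 0.334) with Hoxc6 and -0.412 (adjusted p = 0.877) with Lhx3. The mean of the 10 progenitor markers was 9.80 to 9.81 in the Hoxc6 line and 10.55 to 10.64 in the Lhx3 line, against 10.20 to 10.85 in YFP, and its part in the result was not tested. In the FLAG-tagged, Hoxa5 and DNLhx3 lines Pou3f2 differed by -0.12, -0.19 and -0.15, with adjusted p from 0.544 to 0.874. The other cluster differed there by 0.02, 0.07 and 0.09, opposite in sign to the kept cluster.

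Pou3f3 read 9.50 and 9.55 with Hoxc6 and 9.36 and 9.43 with Lhx3. Against YFP of batch 6 (10.00 and 9.89) and batch 7 (9.78 and 9.54) the differences were -0.42 (limma adjusted p = 0.0927) and -0.27 (adjusted p = 0.55). All 4 arrays lay below the YFP arrays of their batch, which says little with 2 arrays on each side, and neither difference passed. In the FLAG-tagged, Hoxa5 and DNLhx3 lines Pou3f3 differed by -0.00392, -0.01 and 0.08.

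Pou3f4 passed in none of these lines. It read 11.56 and 11.67 with Hoxc6, 11.57 and 11.43 with Lhx3, 11.34 and 11.50 with DNLhx3, 11.37 and 11.21 with Hoxa5, and 11.30 and 11.03 in the FLAG-tagged line. The differences from YFP were 0.10, 0.22, -0.09, -0.22 and -0.34, with limma adjusted p from 0.117 to 0.926. The readings with Hoxc6, DNLhx3 and Hoxa5 overlapped with those of YFP in batch 6, those of the FLAG-tagged line lay below them, and those with Lhx3 lay above YFP of batch 7. With Hoxc6, both arrays read higher for Pou3f1 than 3 of the 4 Pou3f1 arrays of CD2 cells.

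**Figure D3:**
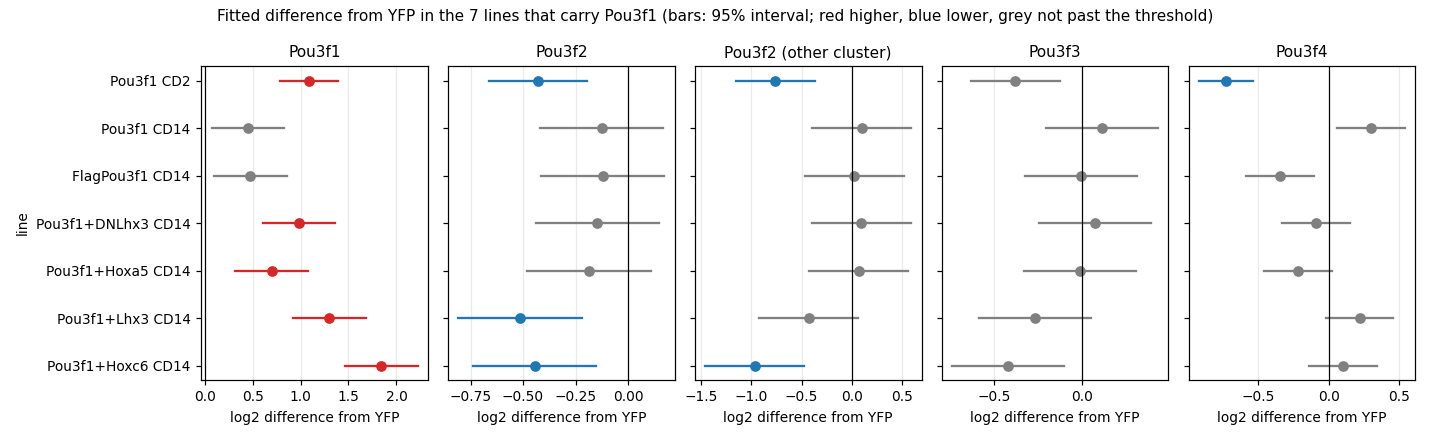
Fitted log2 difference from YFP (x axes) of each member, and of the other Pou3f2 cluster, in the 7 lines that carry induced Pou3f1 (y axis). Points are estimates, bars 95% intervals, and colour marks limma adjusted p under 0.05. Pou3f4 lies clearly below 0 in CD2 cells (-0.73) and between -0.34 and 0.30 in the CD14 lines.

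Whether the Pou3f4 response differed between CD2 cells and the CD14 lines with more Pou3f1 was tested with contrasts chosen after seeing the data. The effect with Hoxc6 exceeded the CD2 effect of Pou3f1 by 0.83 ± 0.15 (limma adjusted p = 0.000531, beside 4.53% of all genes), and that with Lhx3 by 0.94 ± 0.15 (adjusted p = 0.000348, beside 0.492%). With E3 as the CD14 control these became 0.527 (adjusted p = 0.0929) and 0.641 (adjusted p = 0.532), and with both parental lines 0.68 (adjusted p = 0.0234) and 0.793 (adjusted p = 0.147). In the same contrasts Pou3f2 differed by -0.02 (interval -0.39 to 0.36) and -0.08 (interval -0.46 to 0.29), and Pou3f3 by -0.04 and 0.11. The other Pou3f2 cluster differed by -0.20 (interval -0.83 to 0.43) and 0.34 (interval -0.29 to 0.96). Both of these CD14 lines carry a second factor, so the reporter, the batch and the added factor cannot be told apart in them. The contrasts share the YFP arrays and the CD2 arrays of Pou3f1 with the comparisons above.

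Against the CD14 line with Pou3f1 alone, which shares batch 6 with all but the Lhx3 line, 4 of 20 differences of the members passed, in 5 comparisons in which 3.45% of all genes did. The comparisons were unequal. Of 19938 genes, 1788 passed with Hoxc6, 687 with Hoxa5, 440 with FLAG, 420 with DNLhx3 and 100 with Lhx3. The passes of Pou3f3 and of Pou3f1, which both lines carry as transgene, were in the Hoxc6 comparison. Pou3f4 was lower by 0.64 in the FLAG-tagged line (-0.64 ± 0.12, limma adjusted p = 0.00209) and by 0.51 in the Hoxa5 line (-0.51 ± 0.12, adjusted p = 0.00857). All arrays of these lines lay below 11.79, the lower Pou3f1 array. Pou3f1 was higher by 1.39 with Hoxc6 (adjusted p = 2.49e-06), and Pou3f3 was lower by 0.53 (-0.53 ± 0.16, adjusted p = 0.0258). These groups have 2 arrays each. The FLAG call was lost without replicate 2 of Pou3f1 (-0.627, adjusted p = 0.0501) or of the FLAG-tagged line (-0.508). The Hoxa5 call was lost without replicate 1 or 2 of Pou3f1 (-0.53 and -0.498) or replicate 3 of the line (-0.434). The Pou3f3 call was lost without any 1 of its arrays, at -0.513 and -0.552 without replicates 2 and 1 of Pou3f1 and -0.503 and -0.563 without replicates 1 and 2 of the Hoxc6 line. FLAG-tagged and untagged lines differed in Pou3f1 itself by 0.03 (interval -0.35 to 0.41).

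Across all 27 comparisons of a line with YFP, the 4 members gave 108 tests, of which 15 passed (13.9%). Over all genes 1.99% of such tests passed. Pou3f1 was higher in 6 lines, 5 of which carry it as transgene, and lower in none. Those 5 passes are of the induced gene itself, so the 13.9% cannot be set directly against the 1.99%. Pou3f2 passed as lower in 3 lines, the CD2 line with Pou3f1 and the CD14 lines that add Hoxc6 or Lhx3 to it. Its largest difference was in Lhx3 cells without induced Pou3f1 (-0.60) and did not pass, and lines with and without Pou3f1 were not tested against each other. Pou3f3 passed in 0 of 27 by limma, with differences from -0.51 to 0.11. Pou3f4 was lower in 5 lines and higher in 1, and 4 of its falls were in lines without induced Pou3f1.

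**Figure D4:**
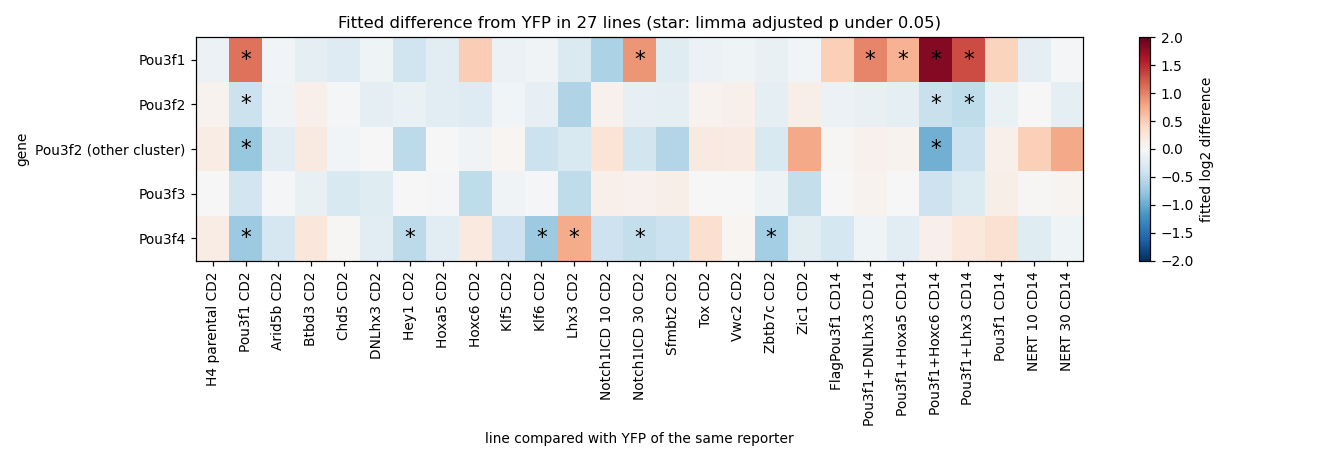
Fitted log2 difference from YFP (colour) of the members and the other Pou3f2 cluster (rows) in 27 lines (columns), with a star where the limma adjusted p was under 0.05. Falls of Pou3f4 are in 5 CD2 lines and its rise is in the Lhx3 line.

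By group mean, and outside the Pou3f1 line, Pou3f4 read lowest in cells with the Kruppel-like factor Klf6 (10.80 and 11.10) and the zinc finger factor Zbtb7c (11.06 and 10.87). All 4 arrays lay below the YFP arrays of CD2 cells, whose lowest value was 11.29. The falls were 0.73 ± 0.10 (limma adjusted p = 0.000322) and 0.68 ± 0.11 (adjusted p = 0.00731). They were lost without replicate 2 of Klf6 in batch 2 (-0.58, adjusted p = 0.0648) and without replicate 2 of Zbtb7c (-0.586, adjusted p = 0.3). They were also lost without batch terms (-0.622 for Klf6, adjusted p = 0.194, and -0.612 for Zbtb7c, adjusted p = 0.233). That of Zbtb7c was lost with reporters fitted apart (adjusted p = 0.0599) and with batch as a random block (adjusted p = 0.0555). Pou3f4 also read low in Klf5 (10.75 and 11.28) and Sfmbt2 (10.85 and 11.17) cells, below every YFP array, and did not pass there. The mean of the progenitor markers was 10.46 to 10.74 in Klf6 and 10.22 to 10.36 in Zbtb7c cells.

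In Hey1 cells, which carry a Notch effector of the bHLH family, Pou3f4 read 11.09 and 11.42 and fell by 0.53 (limma adjusted p = 0.0381). The second array overlapped with YFP, and the call was lost in 5 of the fits that leave out 1 array: -0.496 without YFP of batch 1, -0.593 without YFP of batch 2, -0.506 without replicate 1 of YFP in batch 3, and -0.495 and -0.56 without replicates 1 and 2 of Hey1. It was lost in 11 of 17 alternatives in all, among them the fits with reporters apart (-0.53, adjusted p = 0.188), without batch terms (-0.321, adjusted p = 0.76), with batch as a random block (-0.481, adjusted p = 0.211), with array weights (-0.488, adjusted p = 0.835) and without the 6 batch 4 arrays (-0.499, adjusted p = 0.145). In Notch1 ICD (30) cells it read 11.27 and 11.19, below all 4 YFP arrays, and fell by 0.48 (adjusted p = 0.00353). Without replicate 2 of that line the difference was -0.445 (adjusted p = 0.0682), and without batch terms -0.343 (adjusted p = 0.332). The mean of the 10 progenitor markers was 11.68 to 11.70 in this line, above the 10.37 to 10.96 of YFP, and its part in the result was not tested.

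The only rise of Pou3f4 was in the Lhx3 line of CD2 cells, where the arrays of batches 5 and 6 read 12.02 and 12.35, the latter the highest of all 68. Its rise was 0.74 ± 0.17 (limma adjusted p = 0.0129), and 0.945 without the batch 5 array (adjusted p = 0.174). The call was also lost with reporters fitted apart (0.738, adjusted p = 0.0527) and with array weights (0.763, adjusted p = 0.0716). In the same line Pou3f2 read 9.22 and 9.26 (-0.60 ± 0.21, adjusted p = 0.0877). The other cluster read 8.57 and 7.99 in batches 5 and 6 (-0.30 ± 0.35). These batches hold no YFP array of CD2 cells, so the controls are tied to them through lines shared between batches. In CD14 cells with Lhx3 and Pou3f1 together, Pou3f4 differed from YFP by 0.22, as given above.

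Pou3f1 was also high in some cells that carried no Pou3f1 transgene. In the Notch1 ICD (30) line it read 9.05 and 9.79 and rose by 0.88 ± 0.17 (limma adjusted p = 0.000635). Both arrays lay above all YFP arrays, but without replicate 2 the difference was 0.508 (adjusted p = 0.184). Marker lists differed in these arrays too. The mean of 8 motor neuron markers was 10.23 to 10.49 against 10.84 to 11.14 in YFP, that of 5 V2 interneuron markers 8.67 to 8.68 against 7.56 to 7.99, and that of the 10 progenitor markers 11.68 to 11.70 against 10.37 to 10.96. Their part in the result was not tested. In Notch1 ICD (10) cells it read 8.75 and 8.39, a mean of 8.57 beside 8.54 in YFP. The fitted difference was -0.64, opposite in sign to the means, and did not pass (adjusted p = 0.0684). It includes the batch 4 term, which is estimated in part from the 6 arrays with high Hoxa5. The (30) line exceeded the (10) line by 1.51 ± 0.23 (adjusted p = 1.69e-05), the only 1 of 8 member differences in both comparisons of (30) with (10) to pass, where 5.1% of all genes did. These lines were hybridised in batches 3 and 4, so the difference rests on the same term. It was 0.854 without batch terms (adjusted p = 0.0709) and 0.949 without the 6 batch 4 arrays (adjusted p = 0.121), and neither passed.

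In CD14 cells with NERT, Pou3f1 did not pass against YFP. It read 8.30 and 8.36 in NERT (30) and 8.16 and 8.14 in NERT (10), near or below the YFP arrays of that batch (8.40 and 8.31). The (30) effect in NERT minus that in Notch1 ICD was -0.90 ± 0.26 and did not pass (limma adjusted p = 0.182, beside 0.326% of all genes). It passed at -1.27 (adjusted p = 0.0121) without replicate 1 of Notch1 ICD (30). The reporter, the batch and the construct cannot be told apart here. Pou3f4 differed from YFP by -0.09 in NERT (30) and -0.23 in NERT (10), with neither past the threshold.

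Pou3f1 read high in the batch 4 arrays with high Hoxa5. In lines without a Pou3f1 transgene it read 9.23 in Arid5b, 9.14 in H4, 8.98 in Hoxa5 and 8.83 in Chd5, against 8.41, 8.39 (mean of 2 arrays), 8.40 and 8.39 in the arrays of the same lines from other batches. In these 4 lines the batch 4 array was higher by 0.815, 0.751, 0.582 and 0.447. In Hey1, whose batch 4 array had Hoxa5 at 9.71, it was higher by 0.159. The other 33 CD2 arrays, with those of Pou3f1, Hoxc6 and Notch1 ICD (30) left out, ran from 8.10 to 8.75, below all 4 of these arrays.

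The Hoxc6 line of CD2 cells, in batch 5, read 9.06 and 9.13, and its difference from YFP of 0.50 did not pass (limma adjusted p = 0.356). The Pou3f1 line itself read 0.924 higher in batch 4 than in batches 1 and 2. In the same 4 lines Pou3f4 was higher in batch 4 too, by 0.439, 0.29, 0.419 and 0.27, and in Hey1 by 0.332, so the Pou3f4 shift was also present where Hoxa5 was low. Pou3f2 and Pou3f3 were higher in some of these lines and lower in others. The arrays were chosen for their Hoxa5 level and each comparison has 1 batch 4 array per line, so no test was made.

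**Figure D5:**
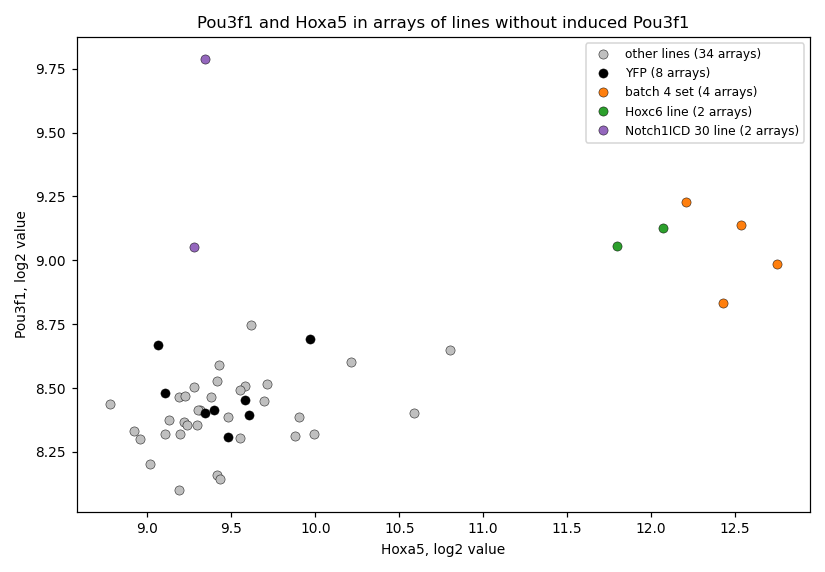
Log2 value of Pou3f1 (y axis) against that of Hoxa5 (x axis) in the 50 arrays of batches 1 to 7 whose lines carry no induced Pou3f1, 1 point per array. The 4 batch 4 arrays with high Hoxa5 read 8.83 to 9.23 for Pou3f1, the Hoxc6 line lies beside them, and the Notch1 ICD (30) arrays reach 9.05 and 9.79 at low Hoxa5.

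How the members varied together was described over the 66 arrays of batches 1 to 7. Pou3f1 and Pou3f2 had a Pearson r of -0.626, and Pou3f2 and Pou3f3 of 0.621. The values over the 50 arrays without induced Pou3f1 were -0.262 and 0.426. Pou3f4 had r between -0.0622 and 0.082 with the other 3 over the 66 arrays. The 2 Pou3f2 clusters had r = 0.75 with each other. The arrays share batches and lines, so the points are not independent and no p is given.

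Genes whose batch-adjusted values were most like each member over the same 66 arrays were ranked by r. These arrays include the 16 of lines with induced Pou3f1, and r without them was not computed for these genes. For Pou3f1 they were Begain (0.837), Car11, Mro, Nrgn and Egfem1, and the lowest were Creb3l2, Eya1 and Morc4 (-0.743). For Pou3f2 they were Mc5r (0.849), Nkx2-2 (0.808), a ventral progenitor factor, Slc25a18, P4ha3 and Ddr1, and the lowest were Mdga2 (-0.834), Pja2 and Zfp949. For Pou3f4 they were Ttc23 (0.681), the bHLH factor Tcf12, Heph, Gas2l3 and the growth factor receptor Fgfr2 (0.657), and the lowest were St6galnac5 (-0.661), Trim46 and Add2. For Pou3f3 they were Wdr91 (0.808), Vps37b, Tmem106c, Ccdc3 and Fam107b, and the lowest were Il18bp (-0.748), Trpm3 and Pcnx2. The r values of Pou3f2, Pou3f3 and Pou3f4 depended on the adjustment. With unadjusted values Mc5r had r = 0.701 and Mdga2 -0.537 with Pou3f2. Wdr91 had 0.218 with Pou3f3, and with Pou3f4 Ttc23 had 0.429 and St6galnac5 -0.285. Over 30 line means these were 0.669, -0.67, 0.017, 0.461 and -0.269.

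Other genes of the POU family and of nearby pathways were counted from lists drawn up with earlier results known. Over all genes, as above, 2.09% passed in CD2 and 0.306% in CD14 cells. Of 8 measured POU genes outside the POU3 class, 1 passed in CD2 cells with Pou3f1. This was Pou2f2 (Oct2), another octamer-binding factor, which rose by 0.82 ± 0.20 (limma adjusted p = 0.0184) and differed by 1.03 in CD14 cells (adjusted p = 0.0579). The median of the 8 was 0.10 in CD2 and 0.13 in CD14 cells, beside 0.0076 and -0.00604 over all genes. Of 13 SOX genes, common partners of POU factors, 0 passed in either kind of cell, and of 13 genes reported elsewhere as POU3 targets 0 passed by limma. Of 14 proneural and neurogenic genes only Ebf1 passed (0.44 in CD2 cells), and of 12 Notch targets none did, with a median of -0.31 in CD2 cells.

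The phrenic and motor column lists were also drawn up with earlier results known, so their counts are not independent of these data. Of 11 phrenic genes, 4 rose in CD2 cells, where 1.3% of all genes were higher: the cadherins Cdh9 (3.76 ± 0.49) and Cdh10 (2.02 ± 0.16), the protocadherin Pcdh10 (1.17 ± 0.15) and the adhesion gene Negr1 (0.77 ± 0.17). In CD14 cells Cdh9 (3.74 ± 0.62, limma adjusted p = 0.000887) and Cdh10 (1.42 ± 0.21, adjusted p = 7.48e-05) rose, where 0.246% of all genes were higher, in the line in which Pou3f1 itself did not pass. The list median was 0.38 in CD2 and 0.46 in CD14 cells. Of 18 motor column and pool factors, Mnx1 (0.70), Lhx1 (1.24) and Nkx6-2 (0.79) rose in CD2 cells and Foxp1 (1.01) in CD14 cells, 3 and 1 genes beside the same shares of 1.3% and 0.246%. None of these lists held a gene that passed in the difference between reporters.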

How the data were processed

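RNA of 68 samples was measured on Affymetrix mouse gene arrays. The deposited table holds log2 values for 35556 transcript clusters, which the authors normalized by RMA in oligo, per the submitters' processing notes, with no version given in the sources used here. Array medians ran from 7.57 to 7.84 in batches 1 to 7 and from 7.08 to 7.09 in batch 0. Scanner files were not used here, and the number of arrays limits the precision.

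Clusters with 1 symbol (21789) were named through the array annotation and RefSeq, and the cluster with the highest mean was kept per gene, leaving 19938. All 68 arrays entered 1 limma model (limma 3.58.1, R 4.3.3) with a term per line and per batch (37 columns, 31 residual degrees of freedom, lmFit and eBayes). Adjusted p-values are two-sided and Benjamini-Hochberg adjusted over 19938 genes in each of 35 comparisons and 3 added ones. "Rose", "fell" and "passed" mean adjusted p under 0.05, and ± is the standard error of the fit. The fit was tested on simulated data.

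The members, lists, alternatives and tests were chosen with earlier results of these data known. Named genes were the 4 members, the list genes that passed, the 5 most and 3 least similar genes per member, Nr0b1 and Hoxa5, and marker genes beside a result. Promoter sequences are RefSeq's (GRCm38.p6). Alternatives changed the arrays fitted, batch terms, normalization, dim-gene filter, eBayes, array weights, controls and cluster, and left out each array.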

Additional observations from a re-analysis of the deposited data

Results flagged for a closer look

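The effect of induced Pou3f1 on Pou3f4 differed between CD14 and CD2 cells by 1.02 in the test of the difference itself. The contrasts added later gave 0.83 for Pou3f1 with Hoxc6 and 0.944 for Pou3f1 with Lhx3, each against the CD2 effect. All share the YFP arrays and the CD2 arrays of Pou3f1. In none of them can the reporter be told apart from the line and the batch.

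The other Pou3f2 cluster had an array far from the others among the 4 YFP arrays of CD14 cells. Replicate 1 of batch 7 read 8.23 against 8.49 to 8.53, and its gap was 0.869 of the group's range, above the 95% critical value for 4 samples. Chance alone marks about 1 in 20 groups, and 15 were examined.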

How the results depend on the processing

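Over 844 values of single members under an alternative, 755 stayed on their side of the threshold, 83 lost the call, 6 gained one, and 0 called values changed sign. Pou3f2 in CD2 cells lost its call with CD2 and CD14 arrays fitted apart (-0.429), with batches 1 and 2 alone (-0.494) and without the 6 batch 4 arrays (-0.403), and when 7 of 8 single arrays were left out (-0.474, -0.439, -0.438, -0.423, -0.417, -0.38 and -0.34). Pou3f3 there ran from -0.476 to -0.293, and was past the threshold in 1 of 20 alternatives, at -0.457. The Pou3f4 difference between reporters lost its call without batch terms (1.03), with E3 as CD14 control (0.721) and with both parental lines (0.874), and ran from 0.888 to 1.16 with single arrays left out. Members past the threshold in lines that add to Pou3f1 went from 4 to 8 with reporters fitted apart or array weights, 2 without batch terms, and 1 to 4 with arrays left out. Those of the Notch lines went from 1 to 0 without batch terms or without the 6 arrays. List genes went from 12 to 21 without batch terms, 26 with array weights, 20 without the 6 arrays and 7 with the replicate block. Of 32 similar genes, 16 kept an r of at least 0.5 in size with unadjusted values and 18 over line means. Genes past the threshold ran from 106 to 978 (417 as reported) in CD2 cells, 15 to 738 (61) in CD14 cells and 0 to 4 (2) in the difference. Causes were not tested.

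With the replicate block, Pou3f2 in CD2 cells was -0.392 (adjusted p = 0.348). What the numbers mark is not stated. Deviations of 29 same-numbered pairs correlated at -0.172 to 0.565, 10 above 0.1 and 7 below -0.1, so the samples were treated as sharing only a number. The block also ended the calls in Pou3f1 with Lhx3 (1.43 for Pou3f1, -0.385 for Pou3f2), with Hoxa5 (0.736 for Pou3f1 and, against Pou3f1 alone, -0.417 for Pou3f4) and with Hoxc6 (-0.445 for Pou3f2), of Pou3f4 in Hey1 (-0.511), and of the difference with Lhx3 (1.15). In Pou3f1 of CD2 cells and in Pou3f1 with Lhx3, an array had a replicate number that no other array had. The other array of Pou3f1 with Lhx3 shared its number only with an array of Pou3f1 with Hoxa5. The block's terms for these numbers were thus fitted from the very arrays compared. The calls lost in these lines therefore cannot be read as an effect of pairing, which was not tested. The difference between reporters could not be fitted with reporters apart. Scaling moved the median of all genes by less than 0.1.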
